A study of Caenorhabditis elegans with 18 samples.

Results

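Fed larvae of 2 Caenorhabditis elegans mutants were compared directly, raga-1 minus rsks-1, with 3 libraries of each, which are 6 of the 18 libraries of the series. The members were chosen by genotype and food alone, from the column headings of the gene table. One group carried raga-1(ok386) and the other rsks-1(ok1255), each as 1 allele in the N2 line. Animals of both groups hatched in M9 buffer without food over 24 h, were then placed on plates with Escherichia coli OP50 for 4 h at the first larval stage (L1), and were harvested whole. The growth temperature was 20 °C for all 18 libraries. The series also holds fed N2 animals and starved animals of all 3 genotypes, with 3 libraries each. The labels give the starved animals the same 24 h in M9 buffer and no time on food. Fed N2 levels are given below as reference values only, and the starved raga-1 and rsks-1 libraries serve to show which differences were already there before food. Each library is RNA of whole, pooled animals, so that fewer cells of a type and less RNA per cell cannot be told apart. The labels do not say whether the libraries of a group were grown as separate cultures, and p-values then measure only the spread between these samples, which may be technical.

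RAGA-1 is the worm RagA, a small GTPase that, with its partner RagC, brings the kinase complex TORC1 to the lysosome when amino acids are plentiful. RSKS-1 is the worm ribosomal S6 kinase, which TORC1 phosphorylates and which is known from many animals to promote protein synthesis and growth. The pair therefore sets a mutant of the input to TORC1 beside a mutant of a single output. In L1 animals, food ends a developmental arrest: cells resume division, ribosome production and digestion rise, and the animal prepares its first molt.

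Library totals were 13446155 to 14508882 counts in fed raga-1 and 10840870 to 16714185 in fed rsks-1, and 14073 genes had enough counts to be tested. Levels are given in CPM, counts scaled to a common library size, after TMM scaling, and differences as log2 of raga-1 over rsks-1 with their standard error (SE). Genes were called different at a Benjamini-Hochberg adjusted p below 0.05 in edgeR's quasi-likelihood test. The first principal component of the 6 libraries held 73.1% of their variance and separated the genotypes. The L1 label was checked against other stages with 51 markers of adult, oocyte, embryo and sperm stages. Of these 40 had too few counts to be tested. The 11 tested ones together stayed at or below 26.4 CPM in each of the 6 libraries. The markers do not cover later larval stages, so L1 could not be told apart from those.

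The deleted genes matched their labels. The raga-1 gene, on chromosome II of the WBcel235 annotation, had 0 counts in each of the 3 fed raga-1 libraries and 44.6, 49.1 and 48.5 CPM in fed rsks-1. Taking 3 counts for the whole group as the floor, its level was at least 711-fold lower in raga-1. The rsks-1 gene, on chromosome III, had 27.8, 22.8 and 23.8 CPM in fed rsks-1 and 169, 157 and 168 CPM in fed raga-1, a log2 difference of 2.75 (SE 0.06). A residue of rsks-1 reads thus remained in every rsks-1 library, whereas raga-1 reads were absent from its own mutant. The fed N2 means were 64.1 CPM for raga-1 and 171 CPM for rsks-1. Of the 10 nearest tested genes at each locus, 3 were higher and 4 lower at raga-1, and 4 were higher and 4 lower at rsks-1. Directly beside raga-1, samp-1, which encodes an inner nuclear membrane protein, had 25.9, 26.3 and 25.3 CPM in fed raga-1 and 56.4, 61.5 and 62.98 CPM in fed rsks-1, with 63.8 CPM in fed N2 and a log2 difference of -1.23 (SE 0.07). The part of the neighbouring deletion in this difference was not tested.

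In the fed larvae, 8236 of the 14073 genes differed (58.5%), 3762 of them higher in raga-1 (26.7%) and 4474 lower (31.8%). At least 2-fold differences were found for 1685 genes (12%), with 929 higher (6.6%) and 756 lower (5.37%). By library totals alone, without TMM scaling, these were 1473 higher and 471 lower. The median log2 difference of all genes was -0.01. Library totals alone moved this median to 0.25 and the share of called genes that were higher from 45.7 to 70.2%, so differences are given relative to the TMM scale. The counts by library totals alone are added for each list whose balance turned or in which a count moved by over 1.5 times and by at least 3 genes. Called genes made up 55.7 to 61.2% of the tested genes on each of the nuclear chromosomes, but their direction varied. On X 34.9% were higher and 23.3% lower, and on V 31.2 and 24.6%. The shares were 21.7 and 39.2% on I, 23.7 and 34.1% on II, 21.8 and 39.4% on III, and 25.8 and 32.7% on IV. Whether chromosomes differed was not tested.

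**Figure D1:**
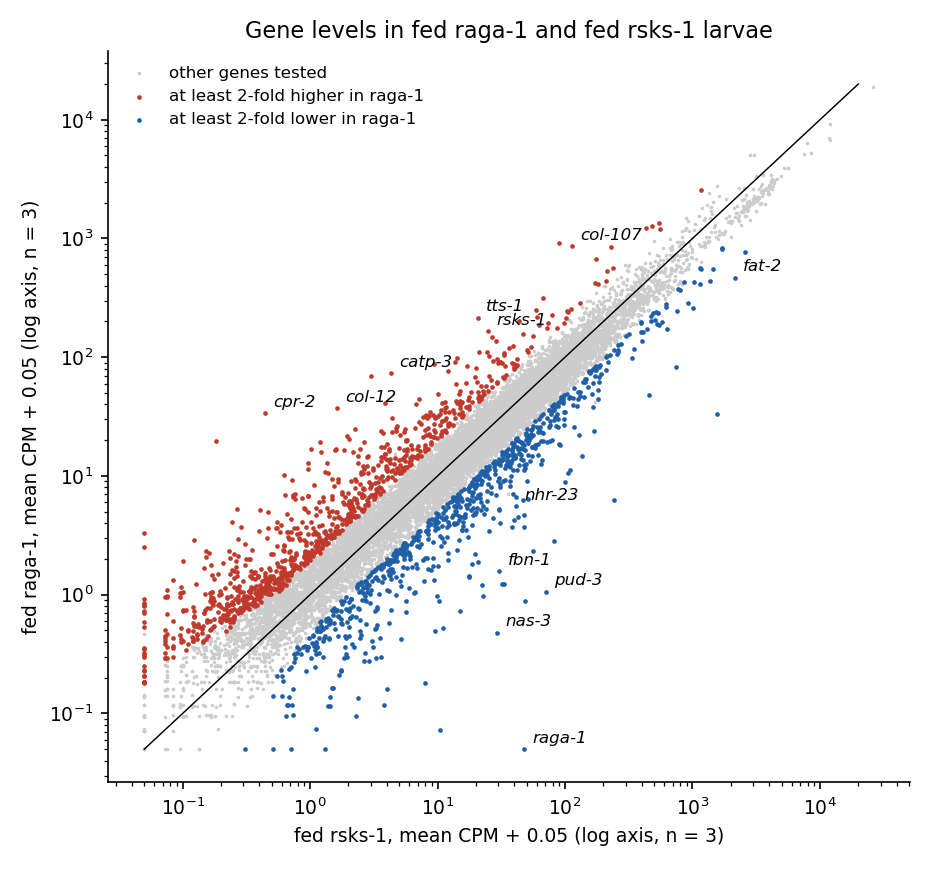
Mean level of each of the 14073 tested genes in fed rsks-1 (horizontal) and fed raga-1 (vertical), in CPM plus 0.05 on log axes, with 3 libraries per group. Red points are the 929 genes at least 2-fold higher in raga-1 and blue points the 756 at least 2-fold lower, and the diagonal marks equal levels.

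The genes furthest above rsks-1 in fed raga-1 larvae included many cuticle collagens. The highest was cpr-2, a cathepsin B-like cysteine protease, with 37.4, 33.9 and 30.7 CPM in raga-1 and 0.103, 0.54 and 0.534 CPM in rsks-1, a log2 difference of 6.29 (SE 0.19). Collagens are the structural proteins of the worm's exoskeleton. The collagen col-12 had 37.9, 33.7 and 39.8 CPM in raga-1 and 2.47, 1.49 and 0.763 CPM in rsks-1, and col-107 had 859, 875 and 839 CPM in raga-1 and 103, 118 and 117 CPM in rsks-1. The other collagens were col-96 with a log2 difference of 4.06 (SE 0.19), col-146 with 4.04 (SE 0.26) and col-130 with 3.90 (SE 0.21). The naming rule admitted only genes without overlap between the libraries of the 2 mutants.

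Further genes at the top of the list have known or predicted enzyme and signalling roles. The ion pump gene catp-3, of the sodium-potassium ATPase alpha family, had 74.5, 72.8 and 73.02 CPM in raga-1 and 3.20, 4.59 and 5.04 CPM in rsks-1, a log2 difference of 4.06 (SE 0.09). The chitinase gene cht-1 differed by 3.10 (SE 0.20) and adt-3, of the ADAMTS metalloprotease family, by 2.94 (SE 0.17). The hedgehog-related genes grd-5 and grl-21 differed by 3.45 (SE 0.17) and 3.40 (SE 0.16), the fungus-induced-related peptide gene fipr-6 by 3.43 (SE 0.20) and the beta-tubulin gene tbb-6 by 3.22 (SE 0.19). The long noncoding RNA tts-1, which is abundant in dauer and long-lived worms, had 220.2, 232 and 195 CPM in raga-1 and 19.6, 20.6 and 21.8 CPM in rsks-1. The gene ram-2, which affects the morphology of the male tail rays, had 905, 934 and 893 CPM in raga-1 and 83.4, 91.9 and 93.7 CPM in rsks-1, a log2 difference of 3.34 (SE 0.04). For each of these 15 genes the mean of fed N2 lay nearer to rsks-1 than to raga-1.

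At the other end, after raga-1 itself, stood genes of the molt, a small gene family called pud and a few enzymes. For subs-4 there was 1 count in fed raga-1 against 390 in fed rsks-1, a ratio of 463 with a 95% counting interval of 82.6 to 18336. The astacin metalloprotease gene nas-3 had 0.701, 0.135 and 0.45 CPM in raga-1 and 27.01, 30.5 and 29.5 CPM in rsks-1, a log2 difference of -6.06 (SE 0.21), and fed N2 was at 27.9 CPM. The collagen col-149 had 1.19, 1.21 and 1.16 CPM in raga-1 and 35.7, 30.5 and 29.1 CPM in rsks-1, so that collagens stood at both ends. The angiotensin-converting-enzyme-like gene acn-1, which is needed for molting, differed by -3.65 (SE 0.19). The glucuronosyltransferase gene ugt-57 differed by -3.72 (SE 0.13) and rml-4, of the rhamnose synthesis pathway, by -3.40 (SE 0.12). The 15 lowest genes include raga-1 itself, whose place follows from its deletion. By CPM distance, the mean of fed N2 lay nearer to rsks-1 in 6 of them, that gene included, and nearer to raga-1 in 9. The scale matters here, since fbn-1 and noah-2 were nearer to raga-1 in CPM but nearer to rsks-1 in log2. These counts therefore cannot be compared with the shares of the larger gene sets given below.

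The pud genes, named for proteins up-regulated in insulin receptor mutants, were far lower in raga-1. Of 6 tested entries, 2 of which carry the name pud-2.2, 5 were called lower and none higher, with a median log2 difference of -4.02. The gene pud-3 had 1.12, 1.08 and 0.836 CPM in raga-1 and 70.4, 70.2 and 72.4 CPM in rsks-1, and pud-4 had 1.05, 0.741 and 1.74 CPM in raga-1 and 31.9, 32.8 and 34.2 CPM in rsks-1. The near-identical copies pud-1.1 and pud-1.2 share reads, so their single values are uncertain. Summed, they had 56.24, 55.08 and 52.24 CPM in raga-1 and 674, 692 and 734 CPM in rsks-1, a 12.8-fold difference, with a mean of 109 CPM in fed N2. The same held before food, when the sum was 56.4 ± 2.04 CPM in starved raga-1 and 884 ± 5.4 CPM in starved rsks-1 (SD, n = 3). In fed and in starved animals alike, N2 lay between the mutants for this sum. The 2 pud-2.2 entries summed to a mean of 125 CPM in fed raga-1, 911 CPM in fed rsks-1 and 212 CPM in fed N2. The mutants thus differed 7.28-fold for them. Both sums differed by less than the median of the single entries, which depends on how reads were split between copies.

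**Figure D2:**
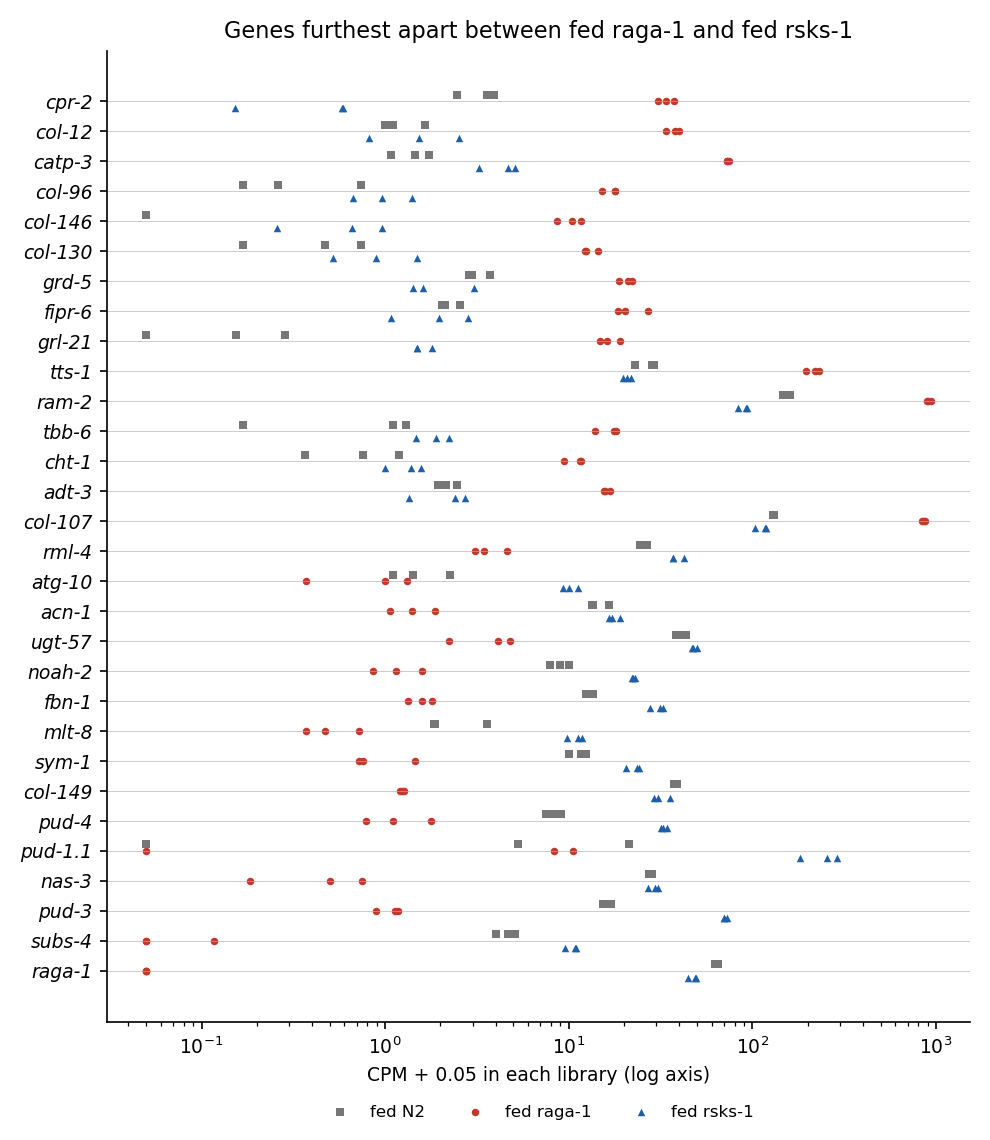
Levels of the 15 genes furthest above and the 15 furthest below rsks-1 in fed raga-1 larvae, in CPM plus 0.05 on a log axis, 1 point per library (circles raga-1, triangles rsks-1, squares N2). The raga-1 and rsks-1 points of a gene never overlap, as the naming rule required, and col-12 runs from 33.7 to 39.8 CPM in raga-1 against 0.763 to 2.47 CPM in rsks-1.

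Growth machinery was lower in raga-1 than in rsks-1 across nearly every list. Of 81 tested cytosolic ribosomal protein genes, 79 were lower and none higher, with a median log2 difference of -0.53 against -0.01 over all genes. The gene rpl-7A, of the large subunit, had 2022, 1963 and 1970 CPM in raga-1 and 3371, 3451 and 3474 CPM in rsks-1. The small-subunit genes rps-12 and rps-2 differed by -0.78 (SE 0.03) and -0.77 (SE 0.03). The member furthest apart was rpl-24.2, at -1.11 (SE 0.03). Of 67 mitochondrial ribosomal protein genes 65 were lower and none was higher, with a median of -0.53, and mrpl-35 had 28.1, 26.6 and 29.6 CPM in raga-1 and 53.7, 50.3 and 56.4 CPM in rsks-1.

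Of 44 translation initiation and elongation factors 43 were lower, none was higher, and the median was -0.48. The cap-binding factor gene ife-1 had 71.5, 69.6 and 68.5 CPM in raga-1 and 156, 177 and 178 CPM in rsks-1, a log2 difference of -1.29 (SE 0.05), and the elongation factor genes eef-1B.2 and eef-1G differed by -1.04 (SE 0.03) and -0.91 (SE 0.03). Among 32 aminoacyl-tRNA synthetases, which charge tRNAs with amino acids, 28 were lower and none higher, led by the tryptophan enzyme wars-1 at -1.05 (SE 0.04) and the leucine enzyme lars-1 at -0.85 (SE 0.03). Of 32 nucleolar and ribosome biogenesis genes 29 were lower and 1 was higher. The nucleolar phosphoprotein gene dao-5 had 533, 505 and 525 CPM in raga-1 and 832, 852 and 801 CPM in rsks-1. By library totals alone the nucleolar counts were 16 lower and 5 higher.

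Proteasome, chaperonin and splicing genes were mostly lower in raga-1, and other chaperones were called in both directions. Of 33 proteasome subunits 31 were lower and none was higher, with a median of -0.68. The 20S core gene pas-5 had 65.8, 59.4 and 61.7 CPM in raga-1 and 134, 143 and 135 CPM in rsks-1, and the lid deubiquitinase gene rpn-11 differed by -0.93 (SE 0.05). All 8 subunits of the CCT chaperonin, which folds actin and tubulin, were lower, with log2 differences from -0.44 to -0.19, and by library totals alone 5 were. Of 15 splicing factors 13 were lower and none was higher, with the SR protein gene rsp-1 at 139, 134 and 133 CPM in raga-1 and 247, 244 and 245 CPM in rsks-1. ER chaperone genes were mixed, with 15 of 29 lower and 7 higher, which turned to 11 lower and 13 higher by library totals alone. The BiP gene hsp-4 went the other way from most of them, with 54.98, 49.7 and 52.4 CPM in raga-1 and 23.4, 22.8 and 22.2 CPM in rsks-1. Among 25 cytosolic and mitochondrial heat-shock proteins 9 were lower and 6 higher, and 5 lower and 12 higher by library totals alone.

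DNA replication and cell cycle genes had the lowest median of the growth lists. Of 55 tested genes 52 were lower in raga-1 and none was higher, 35 of them at least 2-fold, with a median log2 difference of -1.16. The mitotic cyclin gene cyb-3 had 13.04, 13.8 and 13.5 CPM in raga-1 and 63.5, 73.2 and 60.8 CPM in rsks-1, and the mitotic kinase gene cdk-1 had 20.97, 19.3 and 18.7 CPM in raga-1 and 74.1, 79.98 and 76.4 CPM in rsks-1. The origin recognition gene orc-3 differed by -2.095 (SE 0.14) and the thymidylate synthase gene tyms-1 by -1.97 (SE 0.09). The median was already -0.98 in starved larvae, where cdk-1 differed by -1.402 and cyb-3 by -1.16. Purine and pyrimidine synthesis, which feeds replication and shares tyms-1 and other genes with the list above, had 13 of 15 genes lower and 1 higher. Its first committed purine enzyme, ppat-1, had 6.03, 3.97 and 5.92 CPM in raga-1 and 17.1, 18.04 and 15.4 CPM in rsks-1.

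Oxidative phosphorylation genes were lower from both genomes. Of 38 nuclear genes 32 were lower and 1 was higher (22 and 5 by library totals alone), with a median of -0.37, and the cytochrome c gene cyc-2.1 had 1143, 1192 and 1013 CPM in raga-1 and 1708, 1729 and 1709 CPM in rsks-1. Of 11 tested mitochondrial genes 9 were lower and none was higher, with a median of -0.76. The mitochondrial gene ND4, a subunit of complex I, had 444, 405 and 432 CPM in raga-1 and 1056, 1008 and 1027 CPM in rsks-1. In starved animals its log2 difference was -1.57, against -1.27 after food.

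**Figure D3:**
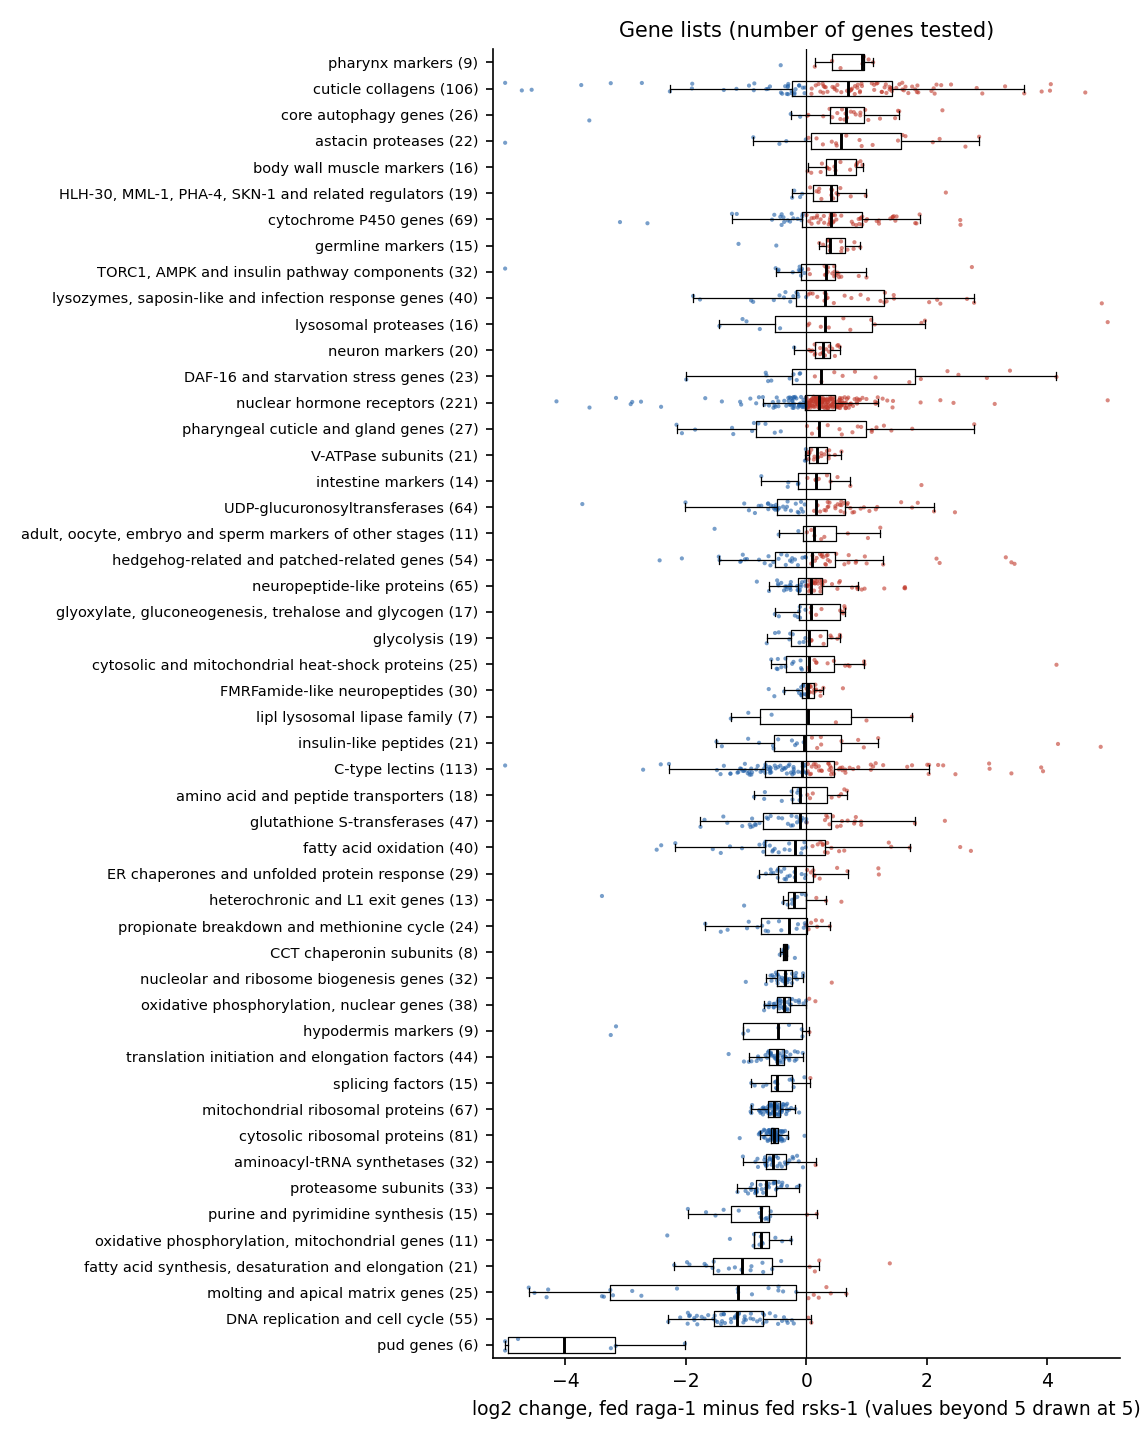
Log2 difference of every tested member of the 50 gene lists, fed raga-1 minus fed rsks-1 on the TMM scale, 1 point per gene with the box from the lower to the upper quartile and the median as a heavy line. Lists are sorted by median, from -4.02 for the pud genes to 0.93 for the pharynx markers, red points lie above 0 and blue points at or below it, and colour does not show the test. By library totals alone the medians of ER chaperones, fatty acid oxidation, glutathione S-transferases, C-type lectins, amino acid transporters, insulin-like peptides and heterochronic genes change sign.

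Fatty acid synthesis genes were also lower in raga-1. Of 21 tested genes 17 were lower in raga-1 and 2 higher, 11 of them at least 2-fold lower, with a median of -1.08. The desaturase gene fat-2 had 466, 464 and 471 CPM in raga-1 and 2129, 2160 and 2122 CPM in rsks-1, and fed N2 had 706 CPM. The desaturase genes fat-3 and fat-4 act after fat-2 in making polyunsaturated fatty acids. There were 265, 266 and 255 CPM of fat-3 in raga-1 and 1017, 1006 and 995 CPM in rsks-1. For fat-4 the values were 274, 292 and 288 CPM in raga-1 and 915, 922 and 919.8 CPM in rsks-1. For all 3 genes fed N2 lay between the mutants, nearer to raga-1, with 368 CPM for fat-3 and 356 CPM for fat-4. The stearoyl-CoA desaturase gene fat-7 had 2.88, 2.63 and 3.54 CPM in raga-1 and 10.6, 12.16 and 12.9 CPM in rsks-1.

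Breakdown pathways held calls in both directions. Fatty acid oxidation had 19 of 40 genes lower and 11 higher, with a median of -0.18, and 17 each way by library totals alone. The peroxisomal acyl-CoA oxidase gene acox-1.2, whose human relatives start beta-oxidation of very long chains, had 7.99, 6.06 and 6.82 CPM in raga-1 and 40.3, 39.1 and 37.5 CPM in rsks-1. The list of propionate breakdown and methionine cycle genes had 14 of 24 lower and 5 higher (12 and 10 by library totals alone). Its regulator nhr-68 had 17.5, 21.1 and 16.47 CPM in raga-1 and 59.6, 59.99 and 56.6 CPM in rsks-1, and acdh-1, the acyl-CoA dehydrogenase of the propionate shunt, had 71.5, 73.1 and 71.2 CPM in raga-1 and 182, 199 and 196 CPM in rsks-1. Glycolysis was split with 7 of 19 genes lower and 7 higher (3 and 10 by library totals alone). The aldolase gene aldo-2 differed by -0.66 (SE 0.03). Of 17 genes of the glyoxylate, gluconeogenesis, trehalose and glycogen list 8 were higher and 6 lower (12 and 2 by library totals alone), with pck-1, the enzyme that commits carbon to glucose synthesis, at 397, 385 and 408 CPM in raga-1 and 254, 262 and 263 CPM in rsks-1.

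Most autophagy genes were higher in raga-1, and the lysosomal lists, given further on, were mixed. Autophagy delivers cell contents to the lysosome, and TORC1 is known to restrain it. Of 26 tested core autophagy genes 21 were higher in raga-1 and 2 lower, 6 of them at least 2-fold higher, with a median log2 difference of 0.66 and 26.7% of all genes called higher. The Atg8 homologue lgg-2, which coats the growing autophagosome, had 138, 139 and 136 CPM in raga-1 and 28.97, 27.8 and 29.7 CPM in rsks-1, a log2 difference of 2.26 (SE 0.05). Its relative lgg-1 had 227, 232 and 227 CPM in raga-1 and 77.4, 81.4 and 80 CPM in rsks-1, and epg-9, a subunit of the initiating kinase complex, had 42.5, 40.3 and 40.5 CPM in raga-1 and 13.9, 14.5 and 13.8 CPM in rsks-1. These 3 genes are named for their large differences. Fed N2, at 31, 90.2 and 13.3 CPM, lay near rsks-1.

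Before food no such gap was called for lgg-2. In starved larvae lgg-2 had 347 CPM in raga-1 and 354 CPM in rsks-1, with a log2 difference of -0.03 (adjusted p = 0.422), and the median of the list was -0.03. The feeding response itself, tested as an interaction, differed for lgg-2 by 2.29 (SE 0.06) and was higher in raga-1 for 19 autophagy genes and lower for 1, against 18.8% of all genes higher and 25.3% lower. The lower response was that of epg-3, a transmembrane protein of autophagosome formation named here after its value was seen, at -0.34 (SE 0.09). The autophagy gene furthest below rsks-1 in fed raga-1 was atg-10, the conjugating enzyme for ATG-12, with 1.26, 0.943 and 0.322 CPM in raga-1 and 10, 11.2 and 9.31 CPM in rsks-1. Fed N2 had 1.55 CPM of it, so here the rsks-1 animals stood apart, and the starved difference was already -2.997.

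Most genes of a wider list of regulators, not only those of autophagy and the lysosome, were also higher. In a list around HLH-30, MML-1, PHA-4 and SKN-1, 13 of 19 regulator genes were higher in raga-1 and 2 lower, with a median of 0.41. The gene hlh-30, the worm TFEB and an activator of autophagy and lysosome genes, had 373, 363 and 384 CPM in raga-1 and 224, 230.3 and 218 CPM in rsks-1. The Max-like gene mxl-3, known in worms as a repressor of lysosomal lipases that opposes HLH-30, had 85.7, 86.3 and 82.8 CPM in raga-1 and 17.01, 17.4 and 16.8 CPM in rsks-1, a log2 difference of 2.31 (SE 0.06). The Mad-like gene mdl-1 differed by 0.99 (SE 0.03) and skn-1, the worm Nrf, by 0.56 (SE 0.03). Among 32 components of TORC1, AMPK and insulin signalling, a list that includes both mutated genes, 17 were higher and 6 lower (23 and 3 by library totals alone). The AMPK subunit gene aakg-1 had 92.3, 89.4 and 96.6 CPM in raga-1 and 50.8, 52.7 and 48.8 CPM in rsks-1, and the catalytic subunit gene aak-1 differed by 0.997 (SE 0.19).

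Within the lysosome, 13 of 21 V-ATPase subunits, which acidify it, were higher and none was lower, with a median of 0.18. By library totals alone 20 were higher and the median was 0.44. The subunit gene vha-5 had 429, 416 and 438 CPM in raga-1 and 284, 284 and 289 CPM in rsks-1. Of 16 lysosomal proteases 9 were higher and 5 lower. The cathepsin B-like gene cpr-4 had 697, 669 and 668 CPM in raga-1 and 172, 169 and 179 CPM in rsks-1, and its relative cpr-1 had 864, 852 and 849 CPM in raga-1 and 224, 228 and 231 CPM in rsks-1. The cathepsin D-like gene asp-4 went the other way, with 66.8, 69.7 and 68.3 CPM in raga-1 and 178, 192 and 186 CPM in rsks-1. Of 7 lysosomal lipase genes of the lipl family 3 were lower and 2 higher, and 2 lower and 3 higher by library totals alone. The gene lipl-5 had 23.8, 26.7 and 26.4 CPM in raga-1 and 35.98, 41.3 and 37.02 CPM in rsks-1, both under the 98.2 CPM of fed N2.

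Genes known to respond to starvation and to the transcription factor DAF-16 were mixed, with 12 of 23 higher in raga-1 and 8 lower (15 and 5 by library totals alone). Their summed level was 1443 to 1546 CPM in raga-1 and 1426 to 1595 CPM in rsks-1. The members named next were all higher in fed raga-1, and the lowest member of the list was at -1.99. The ferritin gene ftn-1 had 7.71, 5.66 and 5.98 CPM in raga-1 and 0.928, 0.608 and 0.916 CPM in rsks-1, a log2 difference of 2.995 (SE 0.24). The transhydrogenase gene nnt-1, of mitochondria, differed by 2.52 (SE 0.18), and tts-1 is described above. The fitted difference of the small heat-shock gene hsp-12.6 was larger but rested on 7 counts in raga-1 and 0 in rsks-1. The feeding response was higher in raga-1 for 14 of the list's genes and lower for 2. In starved larvae tts-1 was at 1077 CPM in raga-1 and 2988 CPM in rsks-1, so its order turned round with food.

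Genes of the molt were mostly lower in fed raga-1, and several of them were higher there before food. Molting depends on a transient apical matrix and on the nuclear receptor NHR-23, which drives molting genes in a rhythm. Of 25 tested molting and apical matrix genes 17 were lower in fed raga-1 and 4 higher, 13 of them at least 2-fold lower, with a median of -1.13. The fibrillin-like gene fbn-1 had 1.54, 1.75 and 1.29 CPM in raga-1 and 31.3, 27.6 and 32.5 CPM in rsks-1. The zona pellucida domain gene noah-2, a component of the transient matrix, had 1.54, 0.808 and 1.09 CPM in raga-1 and 22.2, 22.3 and 22.9 CPM in rsks-1. The leucine-rich repeat gene sym-1 had 1.402, 0.673 and 0.708 CPM in raga-1 and 24.2, 20.4 and 23.5 CPM in rsks-1, and mlt-8 had 0.421, 0.673 and 0.322 CPM in raga-1 and 11.2, 11.8 and 9.77 CPM in rsks-1. Fed N2 lay between the mutants for these 4 genes, at 13.03 CPM for fbn-1 and 8.94 CPM for noah-2.

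Before food the order of these 4 genes was reversed. Of the 17 molting genes that were lower in fed raga-1, 8 were called higher in starved raga-1, 5 lower, and 4 did not pass the test. In starved larvae fbn-1 had 6.36 CPM in raga-1 and 1.77 CPM in rsks-1, with a log2 difference of 1.85, and noah-2 had 9.33 CPM in raga-1 and 1.33 CPM in rsks-1, with 2.86. The feeding response was lower in raga-1 for 19 of the 25 genes and higher for 1, and differed for fbn-1 by -6.16 (SE 0.25) and for sym-1 by -6.64 (SE 0.29). The regulator nhr-23 and the matrix genes noah-1 and let-653 were added after their values were seen. For nhr-23 the fed libraries had 5.05, 5.39 and 6.18 CPM in raga-1 and 41.8, 39.2 and 42.9 CPM in rsks-1. It did not share the reversal, since its log2 difference was -1.398 in starved larvae and -2.89 in fed ones. The period homologue lin-42, which paces molts, had 1.82, 1.62 and 1.80 CPM in raga-1 and 20.8, 17.8 and 16.9 CPM in rsks-1.

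**Figure D4:**
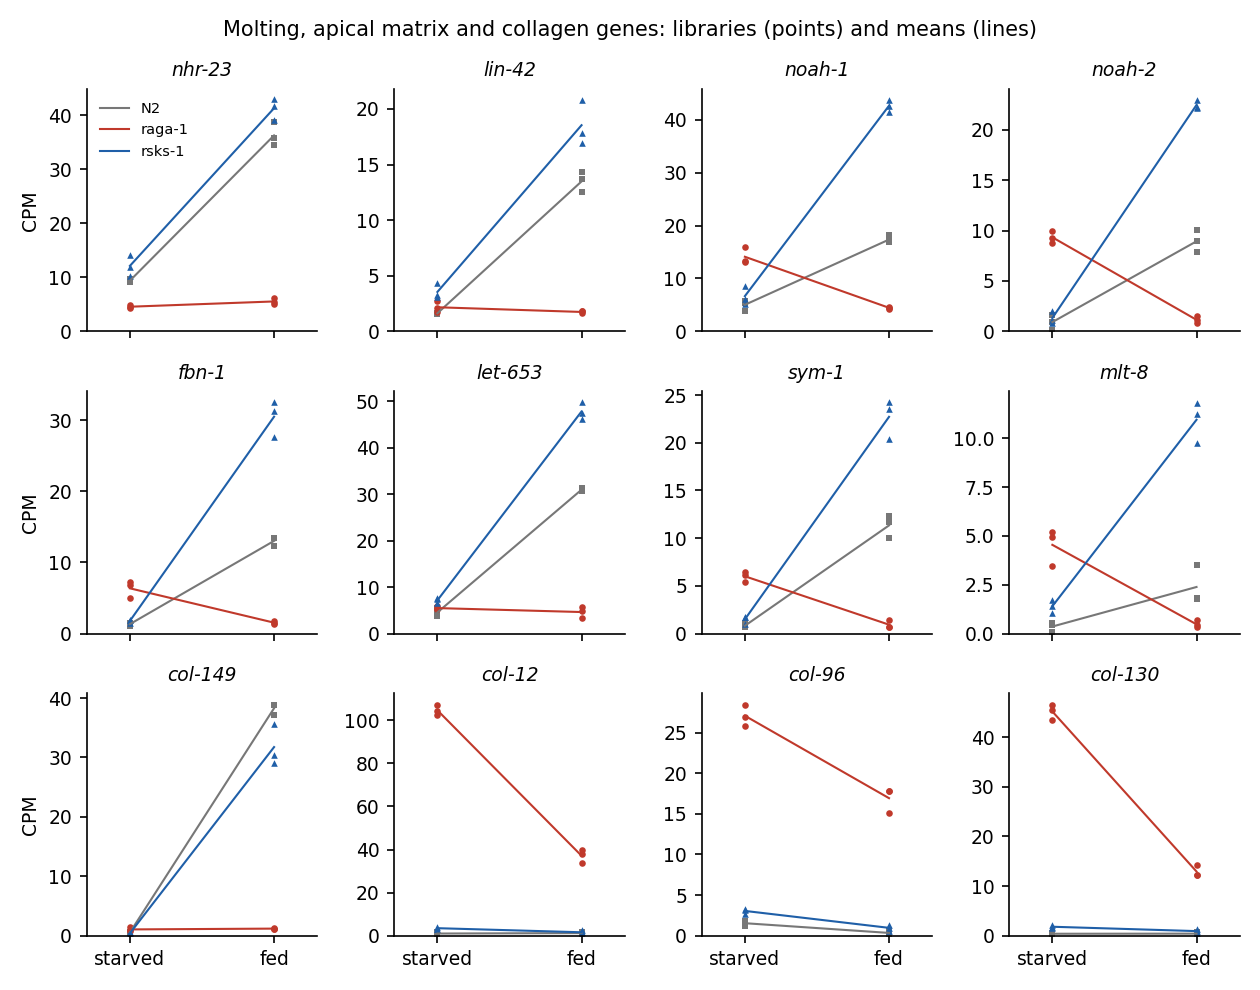
Levels in CPM of 12 molting, apical matrix and collagen genes in starved and fed larvae of N2 (grey squares), raga-1 (red circles) and rsks-1 (blue triangles), 1 point per library and a line between group means. In the panels of noah-2, fbn-1, sym-1 and mlt-8 the raga-1 line falls with food while the rsks-1 line climbs, and in those of col-12, col-96 and col-130 raga-1 lies above the other genotypes in both states.

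Cuticle collagens were called in both directions. Of 106 tested genes (176 were in the table) 43 were higher in fed raga-1 and 22 lower (55 and 14 by library totals alone), with a median of 0.69, and of those past 2-fold 33 were higher and 11 lower. For col-12, the highest of them, starved raga-1 had 105 CPM and starved rsks-1 3.48 CPM, and the feeding response of col-12 differed by -0.26 (adjusted p = 0.451). For col-149, by contrast, both starved mutants lay near 1 CPM or below, at 1.05 CPM in raga-1 and 0.401 CPM in rsks-1, and the gap opened with food. Over the list the feeding response was lower in raga-1 for 42 genes and higher for 14. Astacin metalloproteases, several of which act on the cuticle, had 11 of 22 higher and 3 lower. Hedgehog-related and patched-related genes, which in worms take part in cuticle and molting functions, had 14 of 54 higher and 13 lower, shares of calls no larger than the 26.7 and 31.8% of all genes, and 21 higher and 8 lower by library totals alone. Besides grd-5 and grl-21, named above, the patched-related gene ptr-22 was higher, by 3.31 (SE 0.31), and ptr-1 lower, at -2.44 (SE 0.18). Of 27 pharyngeal cuticle and gland genes 7 were higher and 7 lower, and phat-5, a gland gene, had 21.6, 26.5 and 23.3 CPM in raga-1 and 4.43, 2.70 and 3.51 CPM in rsks-1.

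Hypodermis markers were mostly lower in raga-1, and markers of the other tissues mostly higher. Of 9 hypodermis markers, the tissue that makes the cuticle, 7 were lower in raga-1 and none higher, with a summed level of 1953 to 2073 CPM in raga-1 and 2302 to 2513 CPM in rsks-1, and by library totals alone 5 were lower and 3 higher. The list shares dpy-7, nhr-25 and nhr-73 with the lists above. The GATA factor gene elt-1, which specifies epidermis, had 19.8, 20.5 and 19.9 CPM in raga-1 and 45.7, 39.5 and 39.8 CPM in rsks-1, and lin-26 had 55.9, 51.1 and 53.9 CPM in raga-1 and 105, 105 and 105 CPM in rsks-1. Of 16 body wall muscle markers 15 were higher and none lower, with a median of 0.47, and the muscle myosin gene unc-54 had 5117, 4867 and 5243 CPM in raga-1 and 2913, 2835 and 2733 CPM in rsks-1. Of 9 pharynx markers 7 were higher and 1 lower, and the pharyngeal myosin gene myo-2 had 1229, 1148 and 1235 CPM in raga-1 and 573, 565 and 538 CPM in rsks-1, with 984 CPM in fed N2.

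Of 20 neuron markers 16 were higher and 1 lower, with a median of 0.27, led by unc-13, which primes synaptic vesicles, at 0.55 (SE 0.04). Of 14 intestine markers 8 were higher and 3 lower, and 4 of them are also in the lysosomal, transporter and V-ATPase lists. The aspartic protease gene asp-1 had 5176, 5016 and 5001 CPM in raga-1 and 2993, 3127 and 3048 CPM in rsks-1, whereas the acid phosphatase gene pho-1 had 113.7, 118.7 and 115 CPM in raga-1 and 192, 197 and 195 CPM in rsks-1. Of 15 germline markers 10 were higher and 2 lower, with a summed level of 236 to 247 CPM in raga-1 and 198 to 205 CPM in rsks-1, while the DNA replication genes were lower. The chromatin gene mes-4 had 9.54, 11.5 and 11.6 CPM in raga-1 and 22.1, 26.8 and 22.2 CPM in rsks-1, and the germ granule helicase gene glh-1 had 36.32, 37.2 and 37.1 CPM in raga-1 and 19.1, 20.1 and 24.7 CPM in rsks-1. The part of these tissue differences in the lists above was not tested.

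Detoxification and defence genes were called in both directions within families, beside 26.7% of all genes called higher and 31.8% called lower. Whether a family differed from these shares was not tested. Of 69 cytochrome P450 genes 27 were higher in raga-1 and 9 lower (37 and 5 by library totals alone), with cyp-36A1 at 44.1, 36.02 and 45.4 CPM in raga-1 and 11.03, 11.3 and 11.8 CPM in rsks-1 and cyp-13B1 at 7.08, 7.21 and 5.66 CPM in raga-1 and 38.8, 43.6 and 41.4 CPM in rsks-1. Fed N2, with 11.6 CPM of cyp-36A1, was near rsks-1, and with 6.24 CPM of cyp-13B1, near raga-1. Of 64 UDP-glucuronosyltransferases 29 were higher and 18 lower, and ugt-13 had 144, 146 and 150 CPM in raga-1 and 26.9, 24.7 and 28.3 CPM in rsks-1. Of 47 glutathione S-transferases 17 were lower and 11 higher, and 14 lower and 16 higher by library totals alone. The gene gst-10 had 101, 101 and 94.4 CPM in raga-1 and 334, 338 and 329 CPM in rsks-1.

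Of 113 tested C-type lectins, among 240 in the table, 42 were lower and 21 higher, and 31 lower and 39 higher by library totals alone. The lectin gene clec-47 had 9.05, 9.90 and 8.88 CPM in raga-1 and 1.13, 0.405 and 0.458 CPM in rsks-1. Among 40 lysozyme, saposin-like and infection response genes 19 were higher and 9 lower. The lysozyme gene lys-4 had 48.6, 42.1 and 42.3 CPM in raga-1 and 7.84, 6.96 and 6.34 CPM in rsks-1. The invertebrate-type lysozyme gene ilys-5 had 97.7 ± 6.07 CPM in raga-1 and 14.1 ± 1.80 CPM in rsks-1 (SD, n = 3), and fed N2 had 122 CPM, above both mutants. Nuclear hormone receptors, a very large family in worms, had 84 of 221 higher and 25 lower (135 and 14 by library totals alone).

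Across all genes, differences seen after food were in part those seen before it. Starved raga-1 and rsks-1 larvae differed in 7696 genes (54.7%), 3962 higher (28.2%) and 3734 lower (26.5%). Of the 929 genes at least 2-fold higher in fed raga-1, 496 were also called higher in starved raga-1, 134 were called lower there and 299 did not pass the test. Of the 756 at least 2-fold lower, 486 were also lower before food, 85 were higher and 185 did not pass. The feeding response, tested as the interaction of genotype and food, differed between the mutants for 6199 genes (44%), 2645 higher in raga-1 (18.8%) and 3554 lower (25.3%). By library totals alone 54.2% of these calls were higher, against 42.7% with TMM. By distance in log2 of CPM, fed N2 lay nearer to rsks-1 than to raga-1 in 781 of the 929 higher genes (84.1%). The same held for 535 of the 756 lower ones (70.8%). Nearer does not mean between the mutants. Of the 929 higher genes, fed N2 lay between the mutants in 469, below both in 422 and above both in 38. Of the 756 lower genes it lay between them in 514, above both in 166 and below both in 76. The share over all tested genes was not computed.

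**Figure D5:**
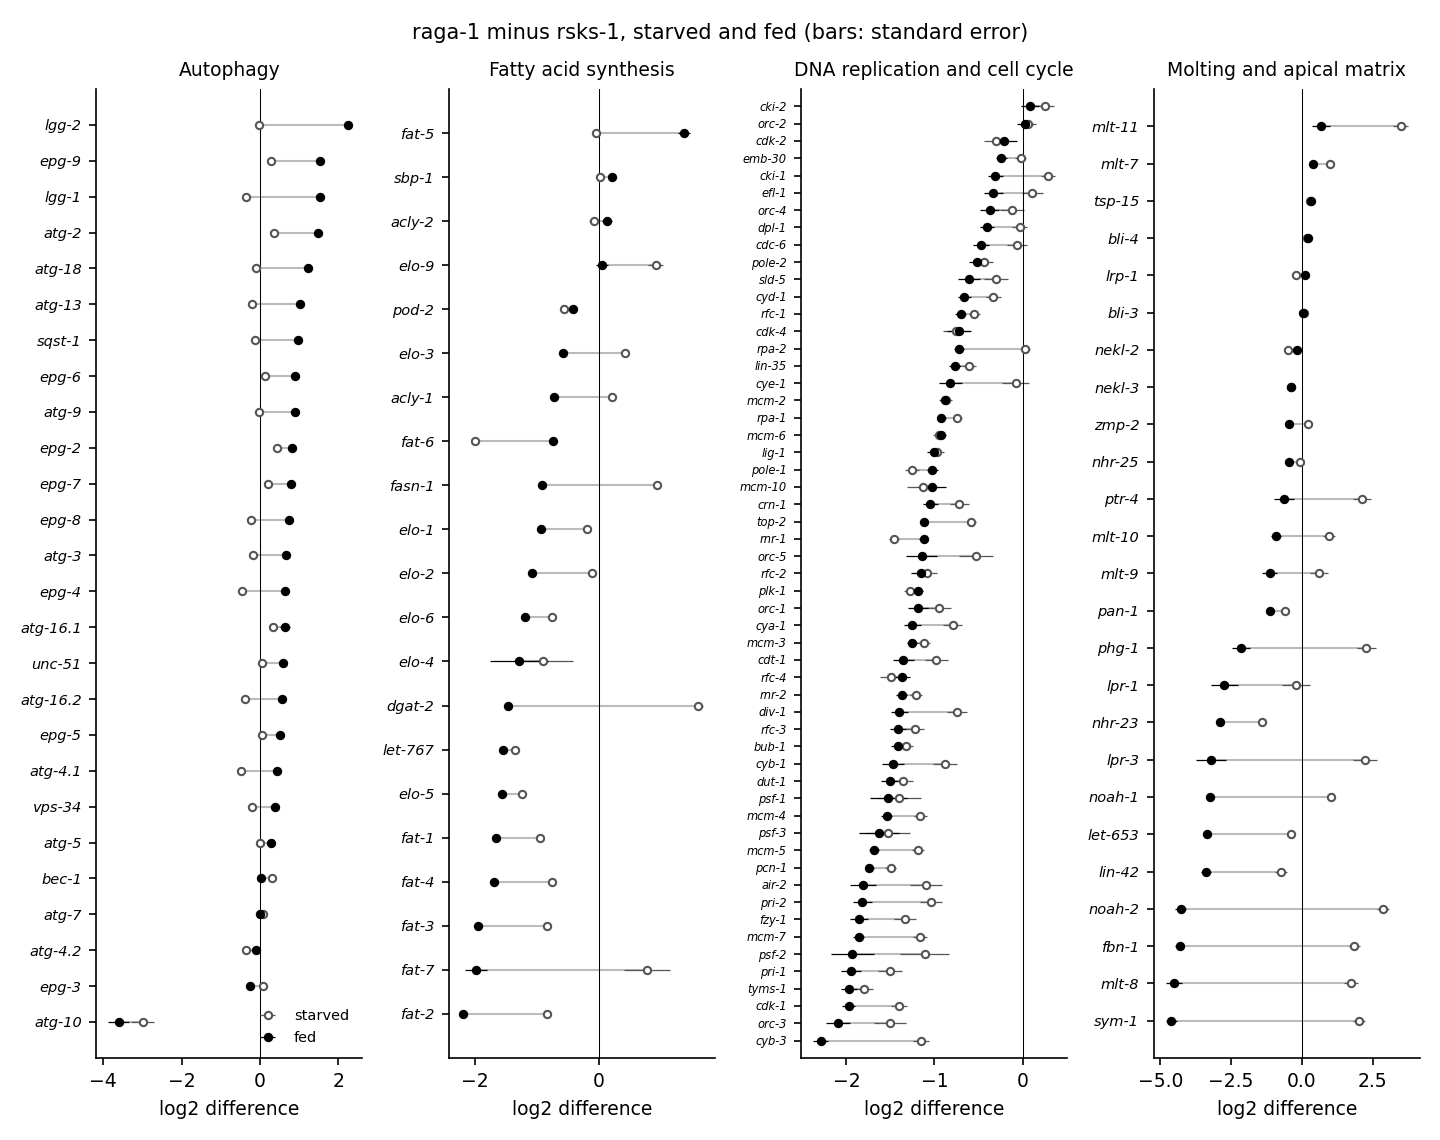
Log2 difference of raga-1 minus rsks-1 in starved (open circles) and fed larvae (filled circles) with standard errors, for every tested gene of 4 lists. Most autophagy genes lie near 0 before food and right of it after food, with atg-10 far left in both states, most DNA replication genes lie left of 0 in both states with medians of -0.98 and -1.16, and several molting genes cross from right to left.

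Counts of the feeding response are given for the growth lists, beside 25.3% of all genes with a lower and 18.8% with a higher response. It was lower in raga-1 for 30 of 33 proteasome subunits, 53 of 67 mitochondrial ribosomal proteins, 35 of 44 translation factors, 29 of 32 nucleolar genes and 8 of 8 CCT subunits. For these lists the starved medians were -0.08, -0.03, -0.01, 0.43 and 0.14. For cytosolic ribosomal proteins the starved median was -0.49, and the response was lower in raga-1 for 23 of 81 genes, near the share of all genes, and higher for 2. The fatty acid synthesis list had a starved median of -0.19 and a lower response in raga-1 for 15 of 21 genes. For DNA replication and cell cycle genes the starved median was -0.98, and the response was lower for 26 of 55 and higher for 1. Aminoacyl-tRNA synthetases had a starved median of 0.01 and a lower response for 23 of 32. Nuclear oxidative phosphorylation genes had -0.30, with 15 of 38 lower and 5 higher. Mitochondrial ones had -0.94, with 2 of 11 lower and 6 higher. Purine and pyrimidine synthesis had -0.43, with 6 of 15 lower and 1 higher. Whether one list's response differed from another's was not tested.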

How the data were processed

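RNA of whole L1 larvae was measured in 18 libraries, 3 in each of 6 groups of genotype and food. The authors deposited expected counts, unscaled, in a gene table and an isoform table. Per the labels' protocols, reads were aligned with STAR in 2 passes to a genome named WBcel269. Per the submitters' processing notes, RSEM and DESeq2 were also used, with versions not given. How libraries were prepared and whether strand was kept is not stated in the labels, so reads of overlapping and antisense genes, and of close copies, cannot be told apart. Gene names, chromosomes and neighbours came from the Ensembl annotation of WBcel235. Its coordinates are not printed because the build names differ. It named 44026 of 46904 genes, and those without a name held 0.78% of counts. Mitochondrial genes were named from RefSeq tables of the same build.

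Expected counts, of which 0.962% of values were not whole, were rounded. Genes were kept by filterByExpr (minimum count 10) and tested with edgeR 4.0.16 (TMM, robust quasi-likelihood, 1 mean per group over all 18 libraries, 12 residual degrees of freedom, common coefficient of variation 0.042) in R 4.3.3. Adjustment was by Benjamini-Hochberg over 14073 genes. The SE is the size of the log2 difference divided by the square root of F. Levels are CPM computed from the counts, and depth limits them to counting error or worse. Replicates differed by more than counting error, with mean chi-square values of 2.23 to 3.32 between raga-1 and 2.84 to 5.99 between rsks-1 libraries for genes with enough counts. In data simulated for the fed comparison, 30, 31, 46 and 45 of 50 genes changed by 1.25, 1.5, 2 and 4-fold were recovered. Among the unchanged genes 8 were called. Only 50 genes per fold were changed among 14073, whereas 58.5% of genes were called in the data. The adjusted threshold therefore differs, and these counts do not give the recovery in the data.

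The comparison, the 50 gene lists (43 pathways and 7 sets of cell type or stage markers) and the rules were chosen with earlier results of these data known. Named genes have a letters-hyphen-number name, an adjusted p below 0.05, at least 10 CPM in a group and no overlap between the fed libraries, 15 in each direction. To these were added up to 4 members of each list with the largest called difference, both mutated genes, their neighbours, and 10 genes with the largest difference in feeding response. The isoform table was used only to check both mutated genes. No sequence table was at hand, so the planned search for promoter motifs was not made.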

Additional observations from a re-analysis of the deposited data

Results flagged for a closer look

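Groups of 3 libraries are too small for a test of outlying libraries. The feeding response differed between raga-1 and rsks-1 for 6199 genes, by an interaction term in edgeR's quasi-likelihood test with Benjamini-Hochberg adjustment. The 5 genes furthest in each direction are given here.

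In 4 of the 5 genes with the higher response in raga-1, the level of starved rsks-1 larvae was far above that of fed ones, and starved raga-1 larvae were lower. The flavin monooxygenase gene fmo-2 had 43.01 CPM in starved raga-1 and 1132 CPM in starved rsks-1, and 1.04 and 1.29 CPM after food, so its difference of 4.44 (SE 0.29) arose before food. The alcohol dehydrogenase gene adh-1 had 1600 CPM in starved raga-1 and 7823 CPM in starved rsks-1, and 38.01 and 11.5 CPM after food. Its order turned round, with a difference in response of 3.998 (SE 0.06). The same turn was seen for tts-1 with 4.85 (SE 0.12), for nnt-1 with 4.37 (SE 0.18) and for nspe-2, of a family of nematode-specific peptides, with 4.24 (SE 0.44).

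The 5 genes with the lower response were high in starved raga-1 larvae only among the starved genotypes. The P450 gene cyp-35A5 had 32.6 CPM in starved raga-1, 0.224 in starved rsks-1 and 0.305 in starved N2, and 24.3, 17.4 and 27.8 CPM after food, with a difference in response of -6.73 (SE 0.26). The lectin gene clec-206 had 16.6 CPM in starved raga-1 and 0.108 CPM in starved rsks-1, and 9.45 and 7.86 CPM after food, with -7.07 (SE 0.38). The genes idpc-4 and idpp-12, whose names stand for intrinsically disordered proteins, had 18.7 and 12.8 CPM in starved raga-1 and under 1 CPM in every fed group, with -7.65 (SE 0.83) and -7.62 (SE 0.91). The matrix gene noah-2, described with the molting genes, differed by -7.15 (SE 0.30). All 10 differences kept their sign and their call under every alternative run.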

How the results depend on the processing

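Scaling by library totals alone, without TMM, raised the genes called higher in fed raga-1 to 6178 and lowered those called lower to 2624. It raised those at least 2-fold higher to 1473 and lowered those at least 2-fold lower to 471, and in starved larvae those called lower to 2428, with 6495 of the 8236 fed calls shared. By library totals alone the median log2 difference changed sign for 7 of the 50 lists: ER chaperones (0.0573), fatty acid oxidation (0.0705), glutathione S-transferases (0.139), C-type lectins (0.117), amino acid transporters (0.148), insulin-like peptides (0.208) and heterochronic genes (0.0517). Leaving out a library turned it for 7 lists with medians near 0 (at most 0.203 in size): glycolysis, where each library left out gave -0.00999 to 0.0837, heat-shock proteins, insulin-like and FMRFamide-like peptides, the lipl family, pharyngeal cuticle genes and markers of other stages. A fit of only the 6 libraries turned 3 of these. The other counts of all genes called in the fed, starved and response comparisons stayed within 1.5 times their value. For the fed comparison DESeq2 called 7904 genes, RLE size factors 8247, no filter on low counts 8176, and a fit of only the 6 libraries 8096. Leaving out each library in turn gave 7621 to 7858 genes, with 3419 to 3557 higher, 4202 to 4306 lower and 1642 to 1712 at least 2-fold different, 894 to 943 of them higher and 748 to 777 lower. The same gave 7048 to 7321 genes in starved larvae, with 3637 to 3766 higher and 3411 to 3555 lower, and 5816 to 6000 for the feeding response, with 2454 to 2564 higher and 3360 to 3446 lower. With a replicate block 8185 genes were called. The replicate numbers did not pair the libraries, since same-numbered libraries of the mutants had correlations of 0.02, 0.02 and -0.01 of their deviations from the group means. Among 215 named genes, no fed difference changed sign. Calls near the threshold were lost for 3 genes by library totals alone, 2 by DESeq2, 1 each without the filter and with the block, and in 25 of 1290 fits that left out a library. Genes with a few counts in 1 group have fold changes set mostly by counting error.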

Other observations

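Signalling peptides were called in both directions, as were all genes, of which 26.7% were higher and 31.8% lower. Whether these lists, or those of the next paragraph, differed from all genes was not tested. Of 30 tested FMRFamide-like neuropeptides 7 were higher in fed raga-1 and 4 lower, and 25 higher and 2 lower by library totals alone. The gene flp-3 had 81.7, 78.2 and 74.6 CPM in raga-1 and 45.6, 50.9 and 56.6 CPM in rsks-1, and flp-27 had 41.2, 46.5 and 44.9 CPM in raga-1 and 62.5, 70.9 and 70.5 CPM in rsks-1. Of 65 neuropeptide-like proteins 21 were higher and 15 lower, and 38 higher and 6 lower by library totals alone. The antimicrobial peptide gene nlp-29, made by the epidermis after infection or wounding, had 23.1, 27.8 and 22.7 CPM in raga-1 and 7.22, 8.11 and 8.32 CPM in rsks-1, and nlp-34 had 6.59, 5.86 and 5.98 and 2.06, 1.82 and 2.06 CPM. Before food nlp-29 was at 92 CPM in raga-1 and 23.9 CPM in rsks-1. Insulin-like peptides were split, with 8 of 21 higher and 8 lower, and 11 higher and 6 lower by library totals alone. The gene ins-27 had 14.2, 13.1 and 10.3 CPM in raga-1 and 32.4, 35.4 and 37.6 CPM in rsks-1, with 14.99 CPM in fed N2.

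Of 18 amino acid and peptide transporters 6 were lower and 4 higher, and 2 lower and 8 higher by library totals alone. The amino acid transporter gene slc-36.1 had 24.3, 20.1 and 18.7 CPM in raga-1 and 29.5, 37.4 and 34.05 CPM in rsks-1. Of 13 heterochronic and L1 exit genes, which time larval fates, 7 were lower and 2 higher, and 3 lower and 5 higher by library totals alone. The transcription factor gene blmp-1 had 45.3, 47.7 and 51.98 CPM in raga-1 and 98.7, 102 and 96.8 CPM in rsks-1, a log2 difference of -1.03 (SE 0.05).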
